A study of Mus musculus with 11 samples.

Results

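The 9 genes described here are part of the killing and redox equipment of phagocytes: the NADPH oxidase subunits Cybb, Cyba, Ncf1, Ncf4 and Rac2, the lysozymes Lyz1 and Lyz2, the inducible nitric oxide synthase Nos2 and the mitochondrial superoxide dismutase Sod2. They were chosen by symbol, and all 9 were found among the 17475 genes of the expression table. Messenger RNA had been sequenced from 2 macrophage populations sorted out of mammary tumours of 6 female mice, in 11 libraries. Both were live CD45+ F4/80+ cells (negative for DAPI) without SiglecF, Ly6C, Ly6G or B220. Tumour-associated macrophages (TAMs) were taken as Vcam+, and mammary tissue macrophages (MTMs) as Vcam- and FOLR2+. Control mice carried PyMT, the polyoma middle T oncogene expressed in the mammary gland, and gave 3 TAM and 3 MTM libraries from mice 1, 3 and 5. MYC mice carried S100a8-cre and Rosa26-LSL-MYC as well as PyMT, and gave 3 TAM libraries from mice 2, 4 and 6 and 2 MTM libraries from mice 2 and 4. All mice were on a B6 background, were lethally irradiated at 7 weeks of age and received 3 M (M for mega) wild-type B6 bone marrow cells. From 2 weeks after the transplant they were kept for 6 weeks on a diet low in protein. Cre was driven by the S100a8 promoter, which is active in myeloid cells of the neutrophil and monocyte lineages, while the donor marrow was wild-type. The diet was the same in every group, so its effect could not be tested.

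The phagocyte oxidase moves electrons from NADPH across a membrane to oxygen and so makes superoxide. Its membrane core, cytochrome b558, is a pair of gp91phox (Cybb) and p22phox (Cyba), which needs both partners to be stable, and it is switched on when partners from the cytosol join it, among them p47phox (Ncf1), p40phox (Ncf4) and the GTPase Rac2. Lysozyme cuts the cell wall of bacteria, and mice have 2 genes for it: Lyz2, the myeloid form used as a general macrophage marker, and Lyz1, the form of Paneth cells of the gut. Nos2 makes nitric oxide from arginine, for which it competes with arginase 1 (Arg1), and Sod2 turns mitochondrial superoxide into hydrogen peroxide.

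The values are log2 levels per length and depth, read here as the log2 of a scaled read number plus 1, and the libraries held an estimated 32.6 to 43.2 M reads in genes. One library stood apart: MYC TAM mouse 4 had 584 genes without a read, where the others had 2072 to 3525. It also had the lowest estimated depth, 32.6 M. Genes were counted as without a read where they sat at a lowest value shared between libraries. How far scaling affects that count was not tested. All 11 macrophage markers listed were measured, and their mean level lay between 8.42 and 8.92 in control TAM libraries, 8.54 and 8.81 in control MTM libraries, 7.89 and 8.31 in MYC TAM libraries, and 8.82 and 8.89 in MYC MTM libraries. Of the sort genes, Folr2 followed the gate, at 7.67 to 8.45 in the 5 MTM libraries and 0.96 to 3.62 in the 6 TAM libraries. Vcam1 did not follow the gate in the MYC mice, where it was low in both populations and the TAMs and MTMs overlapped. The libraries labelled MYC TAM, sorted for Vcam protein, held Vcam1 at 0.96, 1.61 and 2.82, below the 5.25 to 6.86 of the control MTMs and the 7.64 to 8.60 of the control TAMs, and the MYC MTMs held 2.32 and 2.31. The label of the MYC TAM libraries, on which 9 of the 11 calls below rest, is therefore not borne out by the RNA of the gate gene, and MYC TAM stands for the label throughout. Mouse Myc was at 2.66 to 3.18 in control TAMs and 1.78 to 2.16 in MYC TAMs. Whether reads of the MYC transgene were counted there is not given in the sources used here, so Myc does not check the label.

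By count of calls, the 9 genes differed most between the TAMs of the 2 genotypes, and the largest single difference was that of Lyz1 between the control populations (-5.59 on the log2 scale). In MYC TAMs against control TAMs, 6 of 9 passed the test (limma, adjusted p under 0.05 over all genes): Cyba and Lyz2 were higher, and Cybb, Ncf1, Rac2 and Nos2 were lower. The background was high there, since 15.9% of all 17475 genes passed in that comparison, 3.89% as higher and 12.0% as lower. In control mice, 2 of 9 differed between the macrophage types, Lyz1 and Lyz2, both lower in TAMs, where 2.37% of all genes passed and 1.63% as lower. In MYC mice, Ncf1, Rac2 and Lyz1 were lower in TAMs than in MTMs, 3 of 9 genes, where 4.49% of all genes passed and 3.82% as lower. None of the 9 passed between MYC MTMs and control MTMs (limma, adjusted p under 0.05), where 0.618% of all genes did and 1 of the 9, Lyz1, had an unadjusted p under 0.05. None passed the test of the difference between the 2 TAM minus MTM differences (1.24% of all genes passed), although 8 of the 9 had an unadjusted p under 0.05 there, as did 1897 genes of the whole table. The median difference of the 9 genes was -0.63 on the log2 scale in MYC against control TAMs, beside -0.02 over all genes. It was 0.02 between the control populations, -0.42 between the MYC populations and 0.05 between the MTMs, beside medians of -0.00, -0.01 and -0.02 over all genes. Only 9375 of the 17475 genes averaged 1 or more, so these backgrounds include many genes with few reads. Over these 9375 genes, and averaged by group, the library medians of MYC TAMs were 0.30 below those of control TAMs and 0.26 below those of MYC MTMs. With genes averaging under 1 left out, 2656 genes passed between the TAMs, 650 as higher and 2006 as lower. Of the 9 genes 5 passed in that fit, Nos2 being left out.

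**Figure D1:**
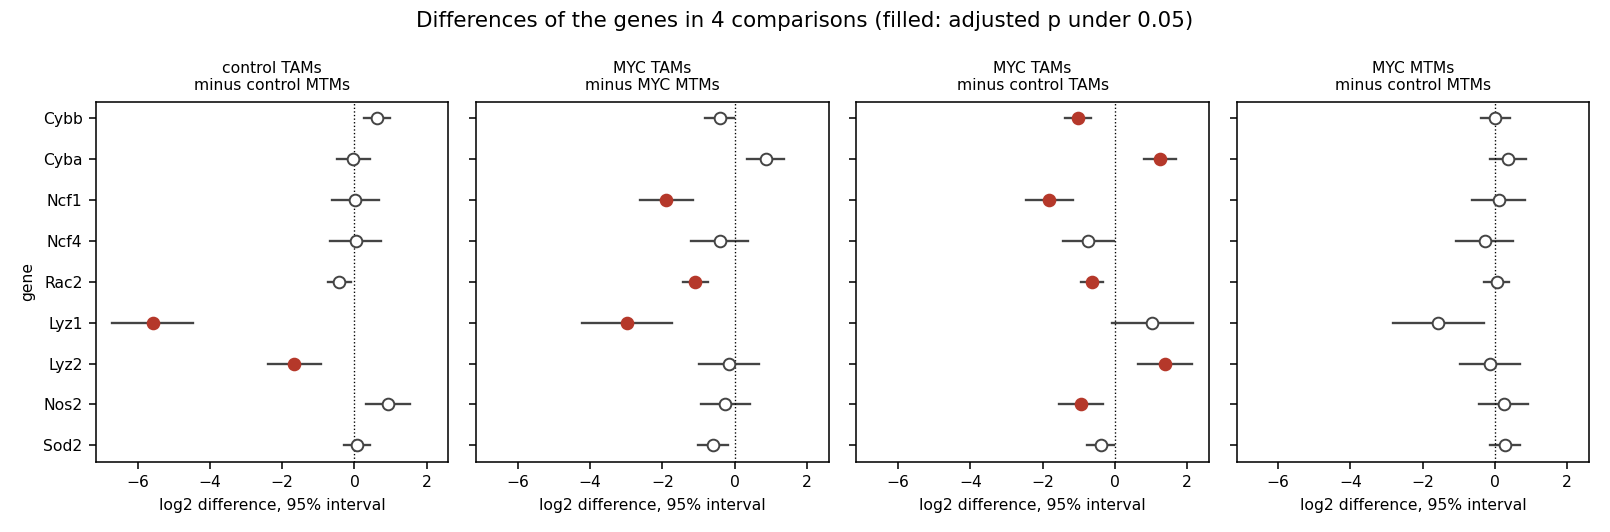
Log2 differences (x axis) of the 9 genes (y axis) in 4 comparisons, with 95% intervals from limma. Filled points passed an adjusted p of 0.05, and 6 of 11 filled points lie in the comparison of MYC TAMs with control TAMs.

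In these bulk libraries, fewer cells of a type and less RNA per cell cannot be told apart. Markers of other cells moved in the same comparison: in MYC TAMs against control TAMs, 10 of 14 T and NK cell markers and 8 of 18 epithelial markers were lower and none was higher. Over all genes 12.0% were lower and 3.89% higher there, the background for each marker list below. The mean level of the T and NK list was 1.77 to 2.58 in control TAM libraries and 0.22 to 0.50 in MYC TAM libraries, with Cd3e and Prf1 without a read in the latter, and that of the epithelial list was 3.96 to 4.84 and 1.90 to 3.63. Of 12 dendritic cell markers 5 were lower and none higher (mean level 1.504 to 1.593 in control TAMs and 0.77 to 1.03 in MYC TAMs), the strongest being Batf3 (-2.40 ± 0.22; limma, adjusted p = 0.000142). Of 12 monocyte markers 3 were lower and none higher (1.68 to 1.81 and 0.90 to 1.15), with Cx3cr1, the fractalkine receptor, at -4.55 ± 0.22 (adjusted p = 5.29e-06). The neutrophil list was at 1.45 to 1.74 in control TAMs and 1.26 to 1.87 in MYC TAMs. Of its 12 measured genes 3 were higher in MYC TAMs, Mmp8 (2.02 ± 0.21; limma, adjusted p = 0.000290), S100a8 (2.00 ± 0.57, 0.0430) and Cxcr2 (0.16 ± 0.05, 0.0490, without a read in control TAMs), and Ltf was lower (-4.47 ± 0.80, 0.00532). The granule genes Mpo and Elane stayed at or under 0.46 in both TAM groups. Other genes of the list were well above that. Csf3r read 5.54 to 5.94 in control TAMs and 5.19 to 6.15 in MYC TAMs, and Ltf 6.92 to 7.78 and 1.11 to 4.43. Of the macrophage markers themselves, Cd68 rose by 1.95 ± 0.15 (SE; limma, adjusted p = 6.61e-05) and 6 of 11 fell, among them Csf1r, the receptor for the growth factor CSF1 (-2.57 ± 0.20, adjusted p = 6.34e-05). Adgre1 (-1.81 ± 0.26; limma, adjusted p = 0.00148) and Ptprc (-0.70 ± 0.17, 0.0215) were also among those that fell. When the mean epithelial marker level entered limma as a covariate, Cybb (adjusted p = 0.0468), Cyba (0.0277), Ncf1 (0.0101) and Rac2 (0.0474) passed between the TAMs, and Lyz2 and Nos2 did not. The covariate did not overlap between the 2 TAM groups, so this fit cannot tell epithelial RNA apart from genotype. The difference of Lyz2 shrank from 1.39 to 0.65 with the covariate (adjusted p = 0.381), while that of Nos2 went from -0.95 to -1.34 (0.114). The part of T, NK, dendritic cell, monocyte and neutrophil RNA in these differences was not tested. Between the MYC populations, 4 of the 11 macrophage markers were lower in TAMs and 1 was higher, where 4.49% of all genes passed. Csf1r (-2.07 ± 0.22; limma, adjusted p = 0.00122), Adgre1 (-2.07 ± 0.29, 0.00428), Itgam and C1qa were lower, and Cd68 was higher. Of 18 epithelial markers 2 were lower there, Cdh1 and Trf, and none was higher. The link of these markers to the differences of Ncf1, Rac2 and Lyz1 there was not tested.

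The 2 membrane subunits moved in opposite directions in MYC TAMs. Cybb, which encodes gp91phox, the electron-carrying subunit, lies on chromosome X at 9435252 to 9487771 (GENCODE M21, GRCm38, minus strand). Its level in control TAMs was 8.11, 7.99 and 7.95 in mice 1, 3 and 5. In control MTMs it was 7.34, 7.63 and 7.20. MYC TAMs held 6.99, 6.76 and 7.22 in mice 2, 4 and 6, and MYC MTMs 7.44 and 7.36. The control TAMs were the highest 3 libraries of all 11, and the MYC TAMs did not overlap them. Cybb fell by 1.03 ± 0.16 in MYC TAMs against control TAMs (SE, 2.04-fold; limma, adjusted p = 0.00249), a call that stayed under every setting tried, and the fall was 0.68 when libraries were scaled to equal medians. In control mice its level was 0.63 ± 0.16 higher in TAMs than in MTMs without passing (adjusted p = 0.0892). It passed there when control MTM mouse 3 was left out (adjusted p = 0.0439). From the highest group to the lowest, Cybb ran from control TAMs (8.02 ± 0.08, SD, n = 3) over MYC MTMs (7.40 ± 0.06, n = 2) and control MTMs (7.39 ± 0.22, n = 3) to MYC TAMs (6.99 ± 0.23, n = 3), and the 2 MTM groups differed by less than their spread.

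Cyba, which encodes p22phox, lies on chromosome 8 at 122424776 to 122432930 (minus strand). Control TAMs held 9.19, 8.68 and 9.07, and control MTMs 9.002, 9.05 and 8.98. MYC TAMs held 10.50, 10.33 and 9.86, and MYC MTMs 9.39 and 9.36. Every MYC TAM library thus lay above all others, and both MYC MTM libraries lay above the control libraries. Cyba rose by 1.25 ± 0.20 in MYC TAMs against control TAMs (2.38-fold; limma, adjusted p = 0.00315), under every setting tried. Between the MYC populations it was 0.86 ± 0.23 higher in TAMs, which did not pass (adjusted p = 0.0705) but did in the model with mouse as a random block (0.0461) and without MYC TAM mouse 6 (0.0192). It also passed there with genes averaging under 1 left out (0.0356), without a variance trend (0.0425), with median centring (0.0149) and with linear scaling (0.0489). The group means of Cyba fell from MYC TAMs (10.23 ± 0.33) over MYC MTMs (9.37 ± 0.02) to control MTMs (9.01 ± 0.04) and control TAMs (8.98 ± 0.27), and the control groups overlapped.

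The stretches just upstream of Cybb, Cyba and Ncf1 are shown because these 3 oxidase genes changed between the TAMs in 2 directions. They are the 250 bases before each RefSeq start (GRCm38.p6), printed 5′ to 3′ on the strand of the gene, all minus, and capitals mark matches to the motifs searched. Cybb is chrX:9469325-9469574, Cyba is chr8:122432941-122433190 and Ncf1 is chr5:134229626-134229875. The Cybb window lies inside the gene span given above, since the outermost GENCODE start of Cybb is further upstream than the RefSeq start.
Cybb: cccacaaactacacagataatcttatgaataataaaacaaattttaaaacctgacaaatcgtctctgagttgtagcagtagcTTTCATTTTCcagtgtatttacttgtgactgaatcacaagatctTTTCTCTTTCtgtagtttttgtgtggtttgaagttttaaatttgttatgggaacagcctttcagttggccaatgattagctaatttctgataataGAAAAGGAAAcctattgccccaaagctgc
Cyba: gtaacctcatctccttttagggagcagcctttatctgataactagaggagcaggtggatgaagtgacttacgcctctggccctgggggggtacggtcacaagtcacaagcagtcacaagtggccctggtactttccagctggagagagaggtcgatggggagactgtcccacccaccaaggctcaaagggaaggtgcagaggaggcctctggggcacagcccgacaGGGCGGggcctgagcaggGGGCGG
Ncf1: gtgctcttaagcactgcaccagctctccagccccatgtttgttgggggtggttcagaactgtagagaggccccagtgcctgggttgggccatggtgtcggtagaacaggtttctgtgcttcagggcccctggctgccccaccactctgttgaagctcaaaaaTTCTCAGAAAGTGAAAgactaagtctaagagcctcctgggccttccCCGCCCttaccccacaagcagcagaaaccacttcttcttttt
A set of 7 motifs was searched on both strands: the interferon response motif ISRE (GAAA, 2 of any base, GAAA), the STAT motif GAS (TTCNNNGAA), an NF-kB motif (GGG, 2 of any base, TTTCC), an ETS core as bound by PU.1 (AGGAAGT), a C/EBP motif (TTGCNNAA), the GC box (GGGCGG) and the TATA box (TATAAA). The Cybb window holds 3 ISRE matches, beginning 168, 124 and 29 bases before the start, and no other motif of the set. Ncf1 holds 1 ISRE match at 82, which overlaps a GAS match at 88, and 1 GC box at 42. Cyba holds neither of these interferon-type motifs but 2 GC boxes, at 24 and 6 bases. Of 32851 RefSeq promoter windows of the same length, 2.98% hold an ISRE match, 7.02% a GAS match and 32.7% a GC box. These are letter matches and not measured sites.

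Of 17 measured genes on a list of inducers of Nos2 and the oxidase, 4 were lower and none was higher in MYC TAMs against control TAMs, beside 12.0% and 3.89% of all genes. Il1b, an inflammatory cytokine, fell by 4.46 ± 0.54 (limma, adjusted p = 0.000639), Irf8, a transcription factor of myeloid cells known to act on the Cybb promoter, had a difference of -0.86 ± 0.12 (0.00147), the cytokine gene Tnf of -1.97 ± 0.45 (0.0157) and Nfkb2, an NF-kB subunit, of -0.82 ± 0.22 (0.0308). Irf8 was also the 1 of the 17 that passed between the control populations, 1.06 ± 0.12 higher in TAMs (0.00168), and it passed the test of the difference between the TAM minus MTM differences (-1.17 ± 0.18, 0.0184). Its libraries lay at 5.59 to 5.82 in control TAMs, 4.54 to 4.71 in control MTMs, 4.74 to 4.91 in MYC TAMs and 4.85 to 5.02 in MYC MTMs. Whether Irf8 or the other inducers had a part in the differences of the oxidase genes was not tested.

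Of the cytosolic subunits, Ncf1 and Rac2 were lower in MYC TAMs than in both the control TAMs and the MYC MTMs. Ncf1, p47phox, the organiser that is phosphorylated to start assembly, lies on chromosome 5 at 134220053 to 134229625 (minus strand). Control TAMs held 6.54, 6.19 and 6.47, and control MTMs 6.57, 6.35 and 6.21. MYC TAMs held 4.34, 4.07 and 5.36 in mice 2, 4 and 6, and MYC MTMs 6.36 and 6.61. The 3 MYC TAM libraries were the lowest of all 11, and the other 8 lay within 6.19 to 6.61. Ncf1 fell by 1.81 ± 0.29 against control TAMs (3.51-fold; limma, adjusted p = 0.00314), under every setting tried. Against MYC MTMs the difference was -1.90 ± 0.33 (3.72-fold, adjusted p = 0.0123), and this call was lost without MYC MTM mouse 2 (0.0850) or 4 (0.119), or when only the 2 groups were fitted (0.168). The change in its TAM minus MTM difference, -1.92 ± 0.44, missed the threshold (adjusted p = 0.0830) and passed without MYC TAM mouse 6 (0.00649), with the random block (0.0491) and with genes averaging under 1 left out (0.0403). Exons of Ncf1 share 408 bases with Gtf2ird2 on the opposite strand. The libraries were stranded, but whether strand was used in counting is not given in the sources used here, so part of the Ncf1 reads is uncertain. Gtf2ird2 itself lay between 0.46 and 1.28 in all 11 libraries.

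Ncf4, p40phox, which binds a phagosome lipid and prolongs the activity of the oxidase, lies on chromosome 15 at 78244801 to 78262580 (plus strand). Control TAMs read 5.80, 6.88 and 5.84 and control MTMs 6.02, 6.51 and 5.91. MYC TAMs read 5.62, 5.72 and 4.99 and MYC MTMs 5.97 and 5.76. The MYC TAMs lay below every other library, the nearest being 5.72 in MYC TAM mouse 4 and 5.76 in MYC MTM mouse 4. No comparison of Ncf4 passed: the difference between the TAMs was -0.73 ± 0.32 (95% interval -1.44 to -0.02; limma, adjusted p = 0.165). The order of its groups was control TAMs (6.17 ± 0.61), control MTMs (6.15 ± 0.32), MYC MTMs (5.86 ± 0.15) and MYC TAMs (5.45 ± 0.39), with the first 3 overlapping.

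Rac2 is the small GTPase of blood cells that completes the oxidase, and lies on chromosome 15 at 78559167 to 78572783 (minus strand). It read 7.12, 7.27 and 7.40 in control TAMs and 7.88, 7.51 and 7.66 in control MTMs. MYC TAMs held 6.57, 6.58 and 6.76, and MYC MTMs 7.72 and 7.73. TAMs lay below MTMs in both genotypes without overlap, and the MYC TAMs were the lowest. Rac2 in MYC TAMs differed by -1.09 ± 0.16 from MYC MTMs (2.13-fold lower; limma, adjusted p = 0.00514) and by -0.63 ± 0.14 from control TAMs (1.54-fold lower, adjusted p = 0.0141). The first call was lost without MYC MTM mouse 2 (0.0615) or 4 (0.0552), or with only the 2 groups fitted (0.0689). The second was lost without control TAM mouse 3 (0.0504) or 5 (0.0580), after median centring (-0.33, adjusted p = 0.124) and after linear scaling (-0.29, 0.266). Between the control populations the difference was -0.42 ± 0.14 (adjusted p = 0.208).

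**Figure D2:**
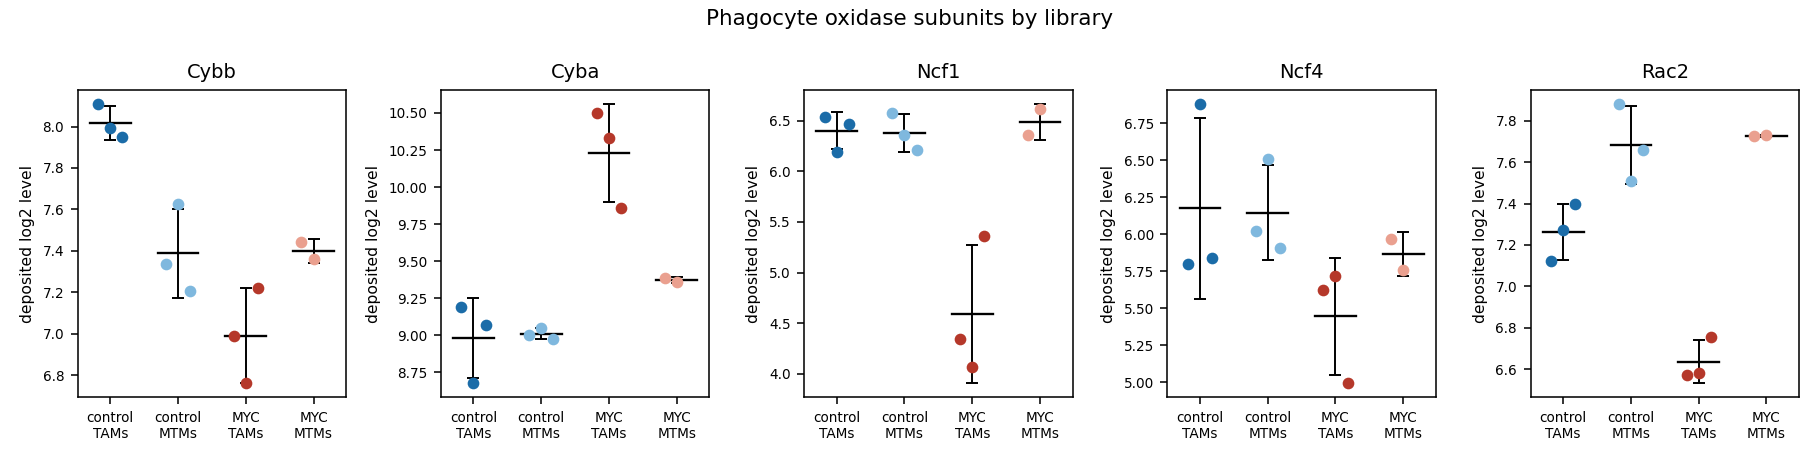
Deposited log2 level (y axis, each panel with its own range) of 5 oxidase subunits in the 4 groups (x axis). Points are libraries, bars the mean and SD, with 3 libraries in each group except 2 for MYC MTMs. MYC TAMs lie lowest for Cybb, Ncf1, Ncf4 and Rac2 and highest for Cyba.

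Of the 19 measured genes on a list of other oxidase genes, none was higher and 3 were lower in MYC TAMs against control TAMs, beside the 15.9% of all genes. Vav1, an exchange factor that loads Rac with GTP in blood cells, fell by 0.98 ± 0.12 (limma, adjusted p = 0.000640), from 7.69 to 7.87 in control TAMs to 6.70 to 6.87 in MYC TAMs. Vav2, its wider-spread relative, fell by 1.58 ± 0.29 (0.00624), and Nox4, a constitutively active oxidase, fell by 0.44 ± 0.11 (0.0199). Arhgdib, which holds small GTPases such as Rac in the cytosol, was lower in TAMs of MYC mice than in their MTMs (-0.75 ± 0.16, 0.0334), the 1 gene of the list to pass there. None of the 19 passed between the control populations or between the MTMs (limma, adjusted p under 0.05).

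Because scaling between libraries cancels within a library, the balance of subunits was also read as a difference of log2 levels inside each library. Effects tied to transcript length or RNA integrity need not cancel. Exon lengths are 1039 bases in Cyba, 5808 in Cybb and 3663 in Ncf1. Cyba, Lyz1 (1263) and Lyz2 (1316), the shortest of the 9 genes, were those with a positive MYC minus control difference in TAMs. The others, of 2020 to 10008 bases, had negative ones. Integrity numbers ran from 3.3 to 9.6, not tied to libraries, and their part was not tested. Cyba exceeded Cybb by 1.08, 0.68 and 1.13 in control TAMs and by 1.67, 1.42 and 1.77 in control MTMs. In MYC mice the excess was 3.51, 3.57 and 2.64 in the TAMs and 1.94 and 2.00 in the MTMs. All 3 MYC TAM libraries stood above the other 8, and the 4 groups did not overlap. The mean excess was 2.28 larger in MYC than in control TAMs, with an exact two-sided permutation p of 0.1, the smallest that 3 against 3 can give, and 1.27 larger in MYC TAMs than in MYC MTMs (exact p = 0.2, of 10 arrangements). Cybb exceeded Ncf1 by 1.48 to 1.80 in control TAMs, 0.76 to 1.27 in control MTMs, 1.86 to 2.69 in MYC TAMs and 0.75 to 1.08 in MYC MTMs. The MTMs of the 2 genotypes overlapped in this measure (exact p = 0.7), while MYC TAMs lay above control TAMs (difference 0.78, exact p = 0.1). With the smallest p at 0.1, none of these exact tests, or of those on the lysozymes, could pass with or without adjustment.

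**Figure D3:**
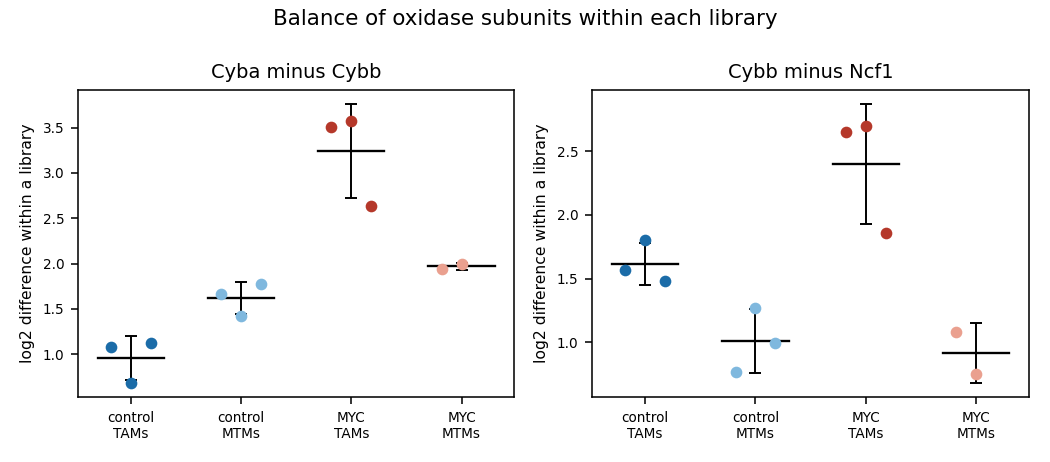
Log2 level of Cyba minus Cybb (left) and of Cybb minus Ncf1 (right) within each library (y axis) in the 4 groups (x axis). Points are libraries, bars the mean and SD. The 3 MYC TAM libraries sit at 2.64 to 3.57 on the left, above the 0.68 to 2.00 of the other 8.

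The lysozymes separated the 2 control populations, and Lyz1 did so more than any other of the 9 genes. They are neighbours on chromosome 10, Lyz2 at 117277331 to 117282321 and Lyz1 at 117287797 to 117292868 (GENCODE M21, GRCm38, both minus strand). Since they are close copies, the stretch of 60 coding bases within 1 exon that holds the most differences is shown, bases 61 to 120 in exon 1, with the differing bases in capitals. Lyz1 is chr10:117292719-117292778 and Lyz2 is chr10:117282123-117282182, both GRCm38, minus strand.
Lyz1: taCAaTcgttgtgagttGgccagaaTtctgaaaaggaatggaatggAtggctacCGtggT
Lyz2: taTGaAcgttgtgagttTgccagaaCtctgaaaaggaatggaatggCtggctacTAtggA
The window holds 9 of the 22 differences in the 447 coding bases, which are 95.1% identical. Along the whole transcripts, 195 of the 1214 stretches of 50 bases in Lyz1 (16.1%) also occur in Lyz2, so some reads could be given to either gene. How the counting treated such reads is not given in the sources used here, and the split between the genes is therefore uncertain.

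Lyz1 read 4.69, 4.17 and 4.75 in control TAMs, and 11.30, 9.11 and 9.96 in control MTMs. In MYC mice it read 5.23, 5.29 and 6.21 in TAMs and 8.27 and 8.85 in MTMs. Every MTM library lay above every TAM library in both genotypes. Lyz1 in control TAMs differed by -5.59 ± 0.50 from control MTMs (48.1-fold lower; limma, adjusted p = 0.000490), under every setting tried. In MYC mice the difference was -2.98 ± 0.56 (7.91-fold, adjusted p = 0.0178), a call lost without the TAMs of mouse 2 (0.0544) or 4 (0.0712) or the MTMs of mouse 2 (0.0960) or 4 (0.161), and with only the 2 groups fitted (0.0698) or quantile normalisation (0.0529). The change from control to MYC mice in that difference, 2.60 ± 0.75, did not pass (adjusted p = 0.175). Lyz1 was also lower in MYC MTMs than in control MTMs, without overlap and without passing (-1.57 ± 0.56; limma, adjusted p = 0.343), and 1.04 ± 0.50 higher in MYC than in control TAMs (adjusted p = 0.217, and 0.0497 with median centring).

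Lyz2 was the highest of the 9 genes in every library. It read 12.62, 12.36 and 12.96 in control TAMs and 14.44, 14.29 and 14.19 in control MTMs. MYC TAMs held 13.68, 13.84 and 14.57, and MYC MTMs 14.11 and 14.24. The control TAMs alone lay apart, below the other 8 libraries, and the MYC TAMs overlapped both MTM groups. Lyz2 in control TAMs differed by -1.66 ± 0.33 from control MTMs (3.16-fold lower; limma, adjusted p = 0.0326). That call was lost with mouse as a fixed block (0.0728), with only the 2 groups fitted (0.221), with quantile normalisation (-1.12, adjusted p = 0.464), with linear scaling (0.0750) and without any 1 of 8 libraries. These were the control TAMs of mice 1 (0.141), 3 (0.135) and 5 (0.0764), the control MTMs of mice 1 (0.131) and 5 (0.108), the MYC TAMs of mouse 4 (0.169) and the MYC MTMs of mice 2 (0.0733) and 4 (0.0729). It was 1.39 ± 0.33 higher in MYC TAMs than in control TAMs (2.61-fold, adjusted p = 0.0198), which was lost with the epithelial covariate (0.65), with quantile normalisation (0.87, adjusted p = 0.306), with only the TAMs fitted (0.117) and without control TAM mouse 1 (0.0585) or 3 (0.0862) or MYC TAM mouse 4 (0.128). The MTM groups differed by -0.13 ± 0.37, with a 95% interval from -0.96 to 0.70.

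On the linear scale Lyz1 made up 0.392%, 0.324% and 0.324% of the 2 lysozymes in control TAMs, and 0.276%, 0.259% and 0.299% in MYC TAMs. Its share was 10.2%, 2.68% and 5.06% in control MTMs, and 1.70% and 2.33% in MYC MTMs. The share was thus near constant in TAMs while their Lyz2 level ranged from 12.36 to 14.57, and it was larger and more spread in MTMs. The 2 genotypes' TAM shares did not overlap (exact permutation p = 0.1, two-sided, the smallest for 3 against 3). The sum of both genes depends little on the split if each shared read was counted once, which is not known. It read 12.36 to 12.97 in control TAMs, 14.26 to 14.59 in control MTMs, 13.69 to 14.57 in MYC TAMs and 14.14 to 14.27 in MYC MTMs, the same order as Lyz2. The difference in the sum between MYC and control TAMs was 1.38 (exact p = 0.1), and between MYC TAMs and MYC MTMs -0.17 (exact p = 0.8).

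**Figure D4:**
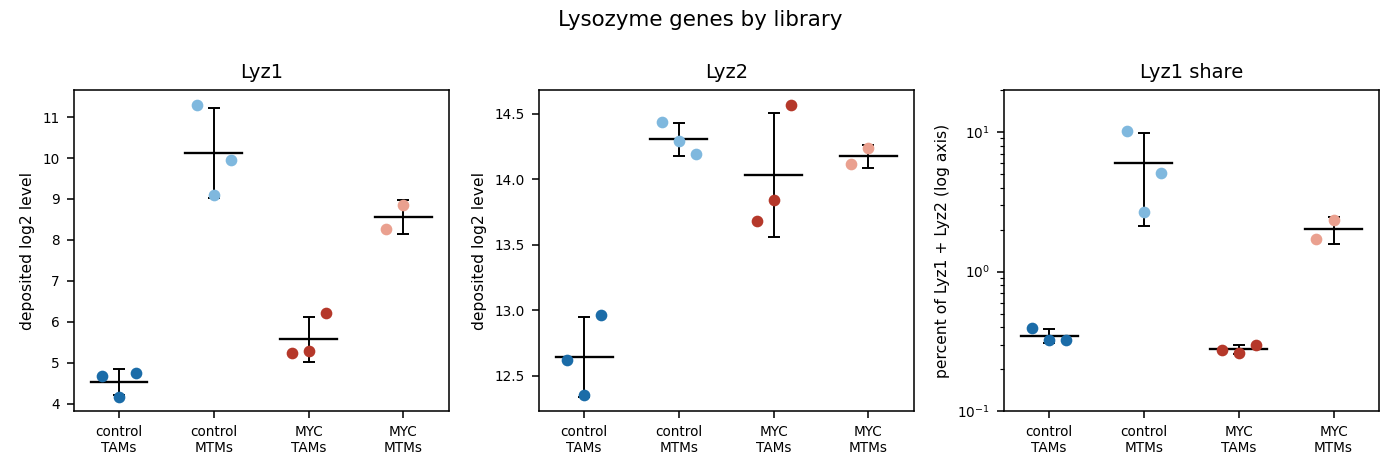
Deposited log2 level (y axis) of Lyz1 and Lyz2, and Lyz1 as a percent of both on the linear scale (right, log axis), in the 4 groups (x axis). Points are libraries, bars the mean and SD. Lyz1 and its share separate TAMs from MTMs in both genotypes, whereas Lyz2 is lowest in control TAMs.

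The sequences upstream are shown for the same pair, because the genes share their last 50 bases before the RefSeq start in full and differ further out. Printed are bases 250 to 51 before the start (RefSeq, GRCm38.p6, minus strand), Lyz1 at chr10:117292919-117293118 and Lyz2 at chr10:117282323-117282522, with capitals where the aligned bases differ or have no partner.
Lyz1: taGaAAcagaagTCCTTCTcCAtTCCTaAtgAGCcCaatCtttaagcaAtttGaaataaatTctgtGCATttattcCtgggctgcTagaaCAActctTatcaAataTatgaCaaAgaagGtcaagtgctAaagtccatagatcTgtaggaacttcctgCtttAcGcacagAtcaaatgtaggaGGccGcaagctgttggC
Lyz2: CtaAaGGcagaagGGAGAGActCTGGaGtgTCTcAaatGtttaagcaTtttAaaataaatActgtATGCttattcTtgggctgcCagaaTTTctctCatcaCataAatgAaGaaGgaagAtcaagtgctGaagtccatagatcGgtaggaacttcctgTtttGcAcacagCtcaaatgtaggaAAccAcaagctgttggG
Over this stretch 150 of 202 aligned columns (74.3%) were identical. Both windows hold 1 ETS core 100 bases before the start (7.69% of all promoter windows hold one), and Lyz1 alone holds a C/EBP match, at 209 bases (9.56%). A match is a description of letters, and no binding was measured.

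Of 12 measured antimicrobial genes on a further list, none passed between TAMs and MTMs in either genotype or between the MTMs (limma, adjusted p under 0.05), and 3 were lower in MYC TAMs than in control TAMs, beside 12.0% of all genes. These were Pglyrp1, a peptidoglycan-binding protein (-2.96 ± 0.37; limma, adjusted p = 0.000731), the iron-binding lactoferrin gene Ltf (-4.47 ± 0.80, 0.00532) and the siderophore-binding Lcn2 (-4.19 ± 0.93, 0.0140). Ltf and Lcn2 are also made by mammary epithelium and neutrophils.

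Nos2 was near the bottom of the scale in every library. It lies on chromosome 11 at 78920787 to 78960254 (plus strand). Control TAMs read 1.06, 1.58 and 1.75, an estimated 136, 264 and 303 reads, and control MTMs 0.61, 0.38 and 0.61, or 65.8, 39.7 and 63.7 reads. MYC TAMs read 0.03, 1.00 and 0.53, or 2.16, 106 and 60.4 reads, and MYC MTMs 0.50 and 1.06, or 53.3 and 142 reads. The 3 control TAM libraries were above the others, though MYC MTM mouse 4 reached 1.06, level with the lowest of them, and MYC TAM mouse 2 held almost no Nos2 reads. Nos2 in MYC TAMs differed by -0.95 ± 0.27 from control TAMs (1.93-fold lower on this scale, which understates low genes; limma, adjusted p = 0.0431). The call was weak: it was lost with a pseudocount of 0.1 (-2.13, adjusted p = 0.0672), with only the TAMs fitted (0.130), with linear scaling (0.0747) and without any 1 of 9 libraries. These were the control TAMs of mice 3 and 5, the MYC TAMs of mice 2 and 6 and all 5 MTM libraries, with adjusted p from 0.0514 to 0.139. Between the control populations Nos2 was 0.93 ± 0.27 higher in TAMs, which did not pass (adjusted p = 0.145).

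Arg1 encodes the enzyme that takes the same substrate. Control TAMs read 4.49, 6.41 and 4.20, control MTMs 6.43, 7.00 and 7.63, MYC TAMs 4.48, 4.01 and 4.85, and MYC MTMs 8.36 and 8.03. MTMs lay above TAMs in both genotypes without overlap, narrowly in control mice. Arg1 in MYC TAMs differed by -3.75 ± 0.60 from MYC MTMs (13.4-fold lower; limma, adjusted p = 0.00838), the 1 of 12 measured nitric oxide and arginine genes to pass there. In control mice the difference was -1.99 ± 0.54 (adjusted p = 0.111), and the change between genotypes did not pass (-1.76 ± 0.81, adjusted p = 0.480). Between the TAMs 1 of the 12 was higher and 3 were lower, beside 3.89% and 12.0% of all genes. Gch1, the entry enzyme of synthesis of the Nos2 cofactor tetrahydrobiopterin, rose by 0.78 ± 0.19 (limma, adjusted p = 0.0205). Ddah2 and Ddah1, which remove an inhibitor of nitric oxide synthases, were lower (-2.36 ± 0.28, 0.000543, and -1.22 ± 0.32, 0.0279), and Ass1, which recycles citrulline to arginine, fell by 1.81 ± 0.32 (0.00501).

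Sod2 had the narrowest range of the 9 genes on the log2 scale and passed in none of the comparisons. It lies on chromosome 17 at 13006846 to 13040063 (plus strand). Control TAMs read 3.51, 3.89 and 3.82 and control MTMs 3.53, 3.83 and 3.66. MYC TAMs read 3.51, 3.15 and 3.39 and MYC MTMs 4.03 and 3.87. Mice 4 and 6 of the MYC TAMs held the lowest values, and mouse 2 there read level with control TAM mouse 1. The largest difference, between the MYC populations, was -0.60 ± 0.18 (95% interval -1.01 to -0.19; limma, adjusted p = 0.111), and that between the TAMs was -0.39 ± 0.16 (-0.76 to -0.03, adjusted p = 0.150). Its groups ran from MYC MTMs (3.95 ± 0.12) over control TAMs (3.74 ± 0.21) and control MTMs (3.67 ± 0.15) to MYC TAMs (3.35 ± 0.18), and the control TAMs overlapped every other group. Sod1, the cytosolic superoxide dismutase, did not pass either, at 4.98 to 6.56 over the libraries. Of 16 measured genes for superoxide and peroxide removal, 3 were higher and 1 was lower in MYC TAMs against control TAMs, beside 3.89% and 12.0% of all genes, and none passed elsewhere (limma, adjusted p under 0.05). Thioredoxin (Txn1) rose by 2.04 ± 0.29 (limma, adjusted p = 0.00145), with 9.91 to 10.77 in MYC TAMs against 7.89 to 8.41 in control TAMs. The lipid peroxide reductase Gpx4 rose by 0.94 ± 0.21 (0.0147) and the secreted peroxidase Gpx3 by 1.83 ± 0.52 (0.0404), and catalase (Cat) fell by 0.62 ± 0.18 (0.0475).

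**Figure D5:**
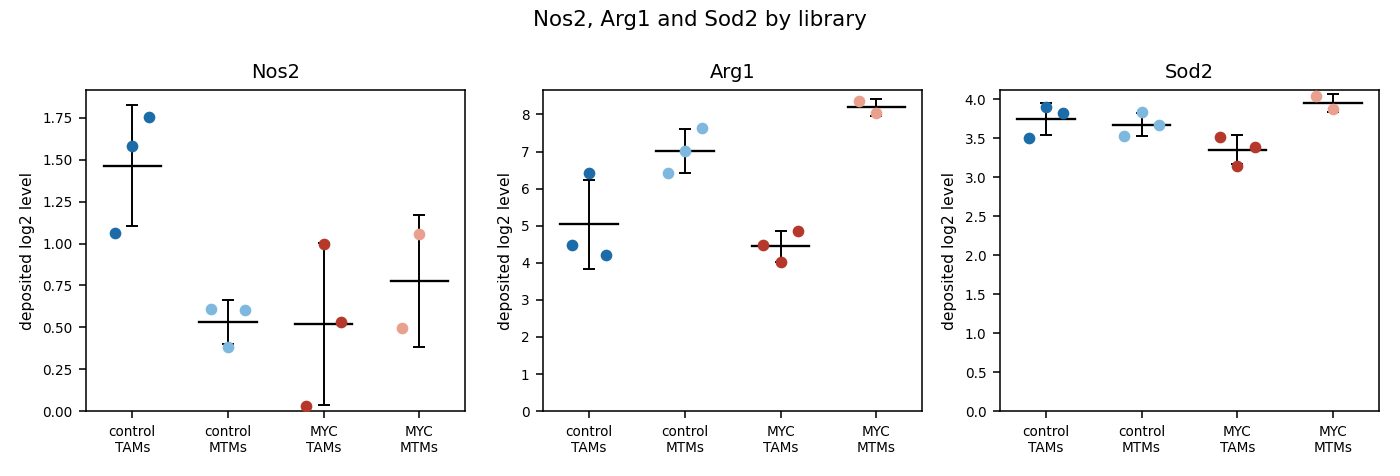
Deposited log2 level (y axis, from 0) of Nos2, Arg1 and Sod2 in the 4 groups (x axis). Points are libraries, bars the mean and SD. Nos2 lies below 2 everywhere, Arg1 is higher in MTMs than in TAMs of each genotype, and Sod2 stays between 3.15 and 4.03.

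Groups that do not overlap were common in the whole table, and the 9 genes were read against that. MYC TAMs lay wholly below control TAMs for 5 of the 9 and wholly above for 3, where 22.1% and 8.03% of all genes did so. Against MYC MTMs, MYC TAMs lay below for 6 and above for 1, beside 23.5% and 6.82%. Control TAMs lay below control MTMs for 3 and above for 2, beside 12.0% and 6.90%. MYC MTMs lay below control MTMs for 1 and above for 2, beside 20.1% and 11.1%, which is near the background. The 2 TAM comparisons share the MYC TAM libraries, so their values are not independent of each other. Over all genes the direction of the calls between the TAMs depended on scaling: 680 were higher and 2098 lower as deposited, 1105 and 1292 with linear scaling, and 6163 and 1473 with median centring, where the balance turned. Under linear scaling Cyba and Lyz2 stayed higher and Cybb and Ncf1 lower.

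The genes most like each of the 9 over the 11 libraries were taken by Pearson correlation among 8736 named genes averaging at least 1. The values describe shared group differences and depth and carry no test. Nearest to Cybb was the interferon receptor gene Ifnar2 (r = 0.962), followed by Pck2 (0.961) and Idh2 (0.960). For Cyba they were Dnase1l1 (0.979), Mthfs (0.976) and Cd300a (0.975). Ncf1 went with Cd276 (0.979), Frmd4b (0.976) and the scavenger receptor gene Stab1 (0.976), and Rac2 with Pacsin2 (0.986), Htra3 (0.979) and Dr1 (0.969). Lyz1 was nearest to Cd209b (0.983), properdin (Cfp, 0.977) and Ifitm6 (0.974), and Lyz2 to Ctps2 (0.967), Tspan17 (0.955) and Tax1bp1 (0.948). For Ncf4 they were Epb4.1l4a (0.972), Crispld2 (0.949) and Dcaf4 (0.945), for Sod2 Nolc1 (0.956), Tmem41a (0.922) and Strap (0.918), and for Nos2 Snapc4 (0.902), Xylb (0.884) and Uhrf1bp1 (0.879). None of these nearest genes was another of the 9.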

How the data were processed

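RNA of sorted macrophages had been sequenced in 11 libraries, per the labels from poly-A RNA (500 ng, integrity numbers 3.3 to 9.6, not tied to libraries) with a stranded kit and 8 PCR cycles. The authors deposited log2 expression values for 17475 genes. Their formula is not given in the sources used here. From the spacing of low values they were read as the log2 of a read number, scaled for depth and length, plus 1, and depth was estimated from that spacing with exon lengths (found for 93.5% of genes). These depths cover counting error only. The submitters' processing notes name HISAT2, DESeq2 and the mm10 (GRCm38.p5) build, with no role for DESeq2.

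Samples were grouped by genotype and sorted population. Limma 3.58.1 (R 4.3.3) fitted 4 group means to all 11 libraries with a variance trend and no block. The two-sided p-values were adjusted over all genes (Benjamini-Hochberg), with a threshold of 0.05. Errors of differences are SE and those of group means SD. Exact permutation tests were run for ratios within libraries. On simulated data of 17475 genes the fit recovered 33% of changes of 1 on the log2 scale and 81% of changes of 2 between the TAMs, and 18% and 69% between the MYC populations. Only 100 genes were changed at each size, all averaging 1 or more, and the rest were equal between groups. In the real data 2778 genes passed between the TAMs, so these rates need not hold there. TAMs and MTMs of a mouse came from the same animal, per the labels; their deviations from the group means correlated at 0.157, 0.184 and 0.0685 in control and 0.109 and 0.0523 in MYC mice, where the 2 MTM deviations mirror each other. A fit with mouse as a block was an alternative.

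The 9 genes and the lists were chosen with earlier results of these data known. The rule for named genes took each of the 9, up to 4 passing genes per list and comparison by adjusted p, the 3 genes most like each of the 9, and Folr2, Vcam1, Rac1, Arg1 and Sod1, with 1 further gene not reported here. Of the marker genes it took, only some are named in the text. Mouse Myc, Gtf2ird2, Mpo, Elane, Csf3r and Ptprc were named outside the rule, after values were seen. Sequences came from RefSeq (GRCm38.p6; 6 of 9 promoters matched) and GENCODE M21 transcripts. Alternatives were the block, the pseudocount, a minimum mean of 1, centring, quantile normalisation, no trend, only the groups compared, the epithelial level as a covariate, leaving out each library, and linear scaling to equal medians, the last chosen after seeing the data. The medians used for centring and linear scaling were those of the genes averaging 1 or more. Python 3.11.15 with Biopython 1.88 read the sequences. Of the table, 68 entries share a symbol with another and were tested but not named.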

Additional observations from a re-analysis of the deposited data

How the results depend on the processing

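Of 958 recomputed values of the 45 differences (9 genes, 5 comparisons), 867 kept their direction and side of the threshold, 47 lost a call, 12 gained one and 32 changed sign, none of them from a called value. Of 11 calls, 4 stayed in every setting: Lyz1 between the control populations, and Cybb, Cyba and Ncf1 between the TAMs.

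With mouse as a fixed replicate block, the calls between the control populations went from 2 to 1 among the 9 genes and from 414 to 255 over all genes, those between the MYC populations from 784 to 476 over all genes, and those for the difference of differences from 216 to 31. With mouse as a random block (correlation 0.127) the last was 325, with 1 of the 9. The paired fit changed no other call than those of Lyz2, Cyba and Ncf1 given above, and could not be made between genotypes. Fitting only the groups compared gave 196 calls and 1 of the 9 between the control populations, 90 and 0 between the MYC populations, 1547 between the TAMs and 0 between the MTMs, with fewer samples behind the variance. Centring each library on its median moved the median of all genes by 0.26 between the MYC populations and 0.30 between the TAMs, and gave 4562 and 7636 calls, since it sets genes without reads apart by construction, and 138 for the difference of differences. Linear scaling and quantile normalisation each left 1 of the 9 between the control populations. Linear scaling gave 216 higher and 383 lower between the MYC populations, against 116 and 668, and 55 and 90 for the difference of differences, against 42 and 174. A minimum mean of 1 gave 327 calls and 1 of the 9 for that difference. The epithelial covariate gave 1207 between the TAMs and 64 for the difference of differences. The cause of the moves under the block, the covariate and scaling was not tested.

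Leaving out 1 library at a time gave 214 to 537 calls and 1 to 3 of the 9 between the control populations, 163 to 1031 and 0 to 4 between the MYC populations, 1734 to 2996 and 3 to 5 between the TAMs (3 without control TAM mouse 3), 23 to 128 and 0 between the MTMs, and 21 to 301 and 0 to 2 for the difference of differences. The lowest counts for the MYC MTM comparisons came from leaving out 1 of the 2 MYC MTM libraries, where the other is assumed to vary like the rest.

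Sign changes touched only differences that had not passed. Between the control populations Cyba read 0.015, 0.077 and 0.021 with median centring, quantile normalisation and linear scaling, against -0.03, and Ncf4 -0.14 with the epithelial covariate, against 0.03; without single libraries Cyba ranged from -0.13 to 0.12, Ncf1 from -0.063 to 0.12, Ncf4 from -0.32 to 0.21 and Sod2 from -0.0080 to 0.19. Between the MYC populations Lyz2 read 0.11 with median centring and 0.15 with linear scaling, against -0.14, Nos2 0.0029 with median centring and Ncf4 0.13 with the covariate; without single libraries Lyz2 ranged from -0.41 to 0.030 and Nos2 from -0.54 to 0.024. Between the TAMs the covariate gave Ncf4 0.20 and Lyz1 -0.26. Between the MTMs quantile normalisation gave Cybb -0.0012, Rac2 -0.011 and Lyz2 0.66, and the covariate Ncf1 -0.057; without single libraries Cybb ranged from -0.080 to 0.13, Rac2 from -0.041 to 0.15, Ncf1 from -0.016 to 0.23 and Nos2 from -0.036 to 0.52. For the difference of differences the covariate gave Ncf4 0.27.

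Depth limits Nos2 most, with as few as 2.16 estimated reads in a library.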

Other observations

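Rac1, the wide-spread relative of Rac2 that can stand in for it in the oxidase, read 6.00 in MYC TAM mouse 4 and 1.73 to 3.59 in the other 10 libraries, so that its difference between the TAMs, 1.40 ± 0.90 (SE; limma, adjusted p = 0.371), rests on 1 library. That library is also the one with the fewest genes without a read. No stretch of 50 bases of the Rac2 transcript (0 of 2989) occurs in Rac1, while 195 of 1267 of Lyz2 occur in Lyz1.

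Of 12 monocyte markers, 1 was lower in TAMs than in MTMs of control mice and 5 in MYC mice, and none was higher. Over all genes 1.63% and 3.82% were lower in these comparisons. Ccr2, the chemokine receptor of inflammatory monocytes, was lower in TAMs than in MTMs of control mice (-3.76 ± 0.34; limma, adjusted p = 0.000506), the 1 marker called there, and of MYC mice (-3.36 ± 0.38, 0.00161). The mean level of 12 monocyte markers was 1.68 to 1.81 in control TAM libraries, 2.09 to 2.59 in control MTMs, 0.90 to 1.15 in MYC TAMs and 2.09 to 2.39 in MYC MTMs. Of 12 dendritic cell markers, Cd209a (-4.64 ± 0.51; limma, adjusted p = 0.00135) and Kmo (-1.78 ± 0.17, 0.000584) were lower and Siglech (1.02 ± 0.17, 0.0128) was higher in TAMs than in MTMs of control mice. The sort left out Ly6C+ cells, and the part of monocyte RNA in the Lyz1 difference was not tested.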
